A study of Rattus norvegicus with 4 samples.

Results

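The circular RNAs (circRNAs) of Mlip are described here in rat sciatic nerve 24 h after a crush injury. A circRNA is made when a downstream splice donor is joined to an upstream splice acceptor, and it is counted by the sequencing reads that cross this back-splice junction. The members are all rows whose host symbol in the deposited files is Mlip, which gave 9 of 4942 circRNAs (0.182%), all on the minus strand of chromosome 8. Mlip was chosen because its junction reads were lower in crushed nerve in an earlier analysis of the same files, so its values in crushed against sham nerve are given as a description and no p-value is given for them.

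Total RNA came from Sprague-Dawley rats in postnatal week 6, from sciatic nerve. In the crush group, 3 mm of the nerve was crushed 2 times for 15 s with a gap of 3 s, and the sham nerve was exposed and left uncrushed. The tissue was collected 24 h after the operation. In the crush group it was the crushed piece together with 1 mm of nerve on either side. No such lengths are recorded for the sham libraries. There were 2 libraries per group, and the labels give neither the number of animals behind a library nor whether animals were pooled. The libraries held 8250 and 9027 junction reads in crushed nerve and 9018 and 8726 in sham nerve. The tissue is a mixture of cells, so fewer cells of a type and less RNA per cell cannot be told apart.

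Mlip encodes the muscular LMNA-interacting protein, which binds the nuclear lamins A and C. It is best known from heart and skeletal muscle, and the RefSeq gene table carries the synonym CIP, from work in mouse heart that described the protein as a partner of the transcription factor Isl1. CircRNAs have no free ends, which makes them resistant to exonucleases and, in general, longer lived than the linear transcripts of the same gene. A gene that yields several circRNAs often does so from a few splice sites used in different combinations.

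The 9 Mlip circRNAs (ENSRNOG00000005934) shared some of their splice sites. On the minus strand the lower coordinate of a circRNA is its donor side and the higher coordinate its acceptor side. In the coordinates of the files (Rnor_6.0), the 9 circRNAs combined 3 donor positions, 84434784, 84443616 and 84482629, with 7 acceptor positions between 84453328 and 84514711. That is 10 distinct ends, where 18 would be needed if no end were shared. The files held 5 host genes with 9 circRNAs each, Mlip among them. Their distinct ends numbered 10 to 17 with a median of 12, so Mlip lay at the low end of this small set. Among hosts with at least 100 junction reads, those with 8 circRNAs had 6, 9, 10 and 11 distinct ends. Those with 10 circRNAs had 10 and 11, so sharing of ends to this degree was not particular to Mlip. Of the 9, the files classed 8 as exonic and 1 as intronic, and no annotation of Rnor_6.0 was used here to assign exon numbers.

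The donor at 84434784 was joined to 5 different acceptors, and the donor at 84443616 to 3. The acceptors at 84461546 and 84496011 were each used by 2 circRNAs. A pair of acceptors, 84496011 and 84496086, lay 75 bases apart. The donor at 84482629 and the acceptor at 84482700 lay 71 bases apart, with the acceptor on the upstream side in the direction of the gene. The genomic span of the 9 circRNAs, which includes introns and is not the length of the circle, ran from 13382 to 79927 bases.

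**Figure D1:**
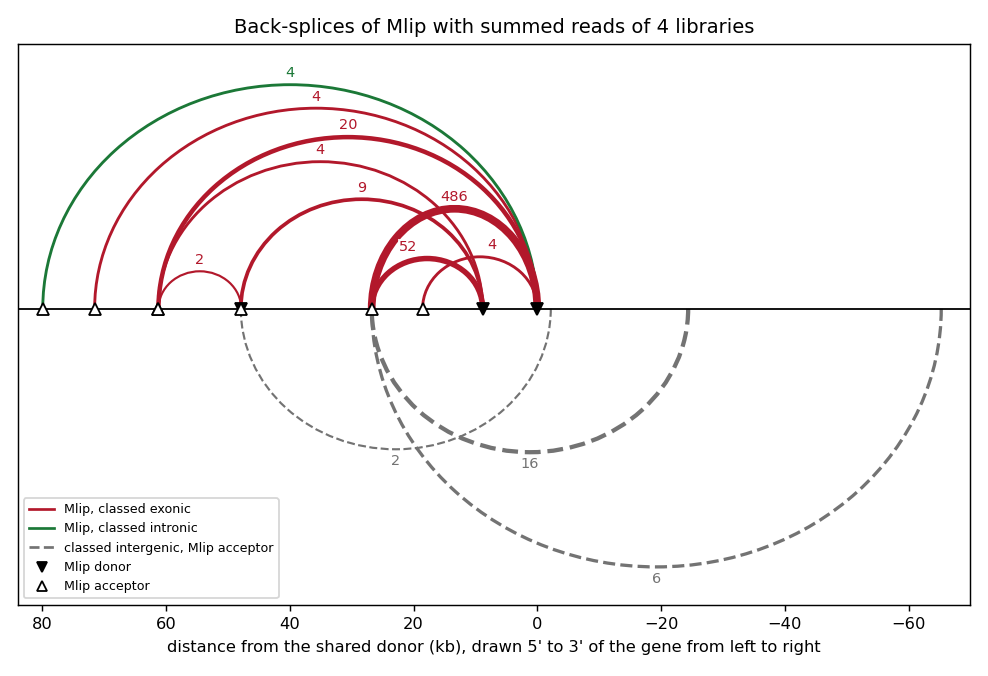
Back-splices of Mlip drawn as arcs between acceptor (open triangles) and donor (filled triangles) against the distance in kb from the most used donor, 5′ to 3′ of the gene from left to right. Numbers are junction reads summed over the 4 libraries, line width grows with the logarithm of the reads, and arc height carries no value. The arc with 486 reads and the arc with 52 reads share an acceptor, and 3 dashed arcs classed as intergenic end at Mlip acceptors.

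Most Mlip reads came from 1 circRNA. The circRNA at chromosome 8, 84434784 to 84461546, classed as exonic, spanned 26762 bases and carried 486 of the 585 Mlip junction reads (83.1%). It had 66 and 64 reads in crushed nerve against 177 and 179 in sham nerve. In SRPBM, the deposited signal that scales junction reads by 1 constant per library, this was 4.79 and 3.83 in crushed nerve against 12.9 and 14.1 in sham nerve. Both crush libraries lay well below both sham libraries, and the replicates within a group lay close together. The means were 4.31 ± 0.68 SRPBM in crushed nerve and 13.5 ± 0.84 in sham nerve (SD, n = 2 each). The edgeR fit over all circRNAs gave a log2 change of -1.24 ± 0.31 (SE), a level 2.36-fold lower in crushed nerve. The SRPBM means differed by 3.13-fold. The fit scales libraries by TMM, which takes out a shift common to all circRNAs. The circRNA's log2 change was -1.41 with total junction reads and no TMM, and -1.65 with library totals from the SRPBM constants and no TMM, so both choices of scale moved the value.

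By mean SRPBM over the 4 libraries this circRNA ranked 3 of 4942. Within single libraries its rank was 4 and 6 for the crush replicates, against 5 and 3 for the sham replicates, each counted at a single junction with no division by length. The circRNA directly above it in level, an intergenic one at chromosome 10, 94083626 to 94187819, had 1.52 and 2.39 SRPBM in crushed nerve against 15.0 and 21.8 in sham nerve. The one directly below, an intergenic circRNA at chromosome 3, 81127393 to 81143240, had 10.9 and 6.10 SRPBM in crushed nerve against 8.09 and 8.41 in sham nerve. In the sham libraries the leading Mlip circRNA was below the first of these and above the second, and in the crush libraries this order was turned round for both.

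The circRNA next in abundance shared the acceptor of the leading one and differed in its donor. It lay at 84443616 to 84461546, was classed as exonic and spanned 17930 bases. It had 5 and 3 reads in crushed nerve against 16 and 28 in sham nerve, or 0.271 ± 0.129 SRPBM against 1.68 ± 0.73 (SD, n = 2 each). The groups did not overlap, and the 2 sham libraries differed from each other more than those of the leading circRNA did. The fitted log2 change was -2.23 ± 0.60 (SE, edgeR).

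The third circRNA reported in all 4 libraries shared the donor of the leading one and reached further upstream. It lay at 84434784 to 84496011, was classed as exonic and spanned 61227 bases. It had 3 and 2 reads in crushed nerve against 5 and 10 in sham nerve, or 0.169 ± 0.069 SRPBM against 0.575 ± 0.299 (SD, n = 2 each). The groups did not overlap here either. A circRNA was fitted where at least 2 libraries had at least 5 reads. Here the sham libraries alone reached this, so the filter fixed the order of the groups. At such counts the fitted log2 change of -1.35 carried a standard error of 0.86.

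The other 6 Mlip circRNAs had at most 4 reads in any library. Together they had 2 and 10 reads in crushed nerve against 6 and 9 in sham nerve, so their groups overlapped. The exonic circRNA at 84443616 to 84482700 was reported in 3 libraries, with 0 and 4 reads in crushed nerve against 2 and 3 in sham nerve. The exonic circRNA at 84434784 to 84506328 was the only member reported in both libraries of a group and in neither of the other, with 2 and 2 reads in crushed nerve against 0 and 0 in sham nerve. A listed value was either 0 or at least 2 reads, so these are the smallest counts the files can show.

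Each of the remaining 4 was reported in a single library. The circRNA classed as intronic, at 84434784 to 84514711, had the longest span, 79927 bases, and 4 reads in crush replicate 2. Those at 84443616 to 84496086 and 84482629 to 84496011 had 4 and 2 reads in sham replicate 2, and the one at 84434784 to 84453328 had 4 reads in sham replicate 1. No fold is given for these or for the one at 84434784 to 84506328, since in SRPBM the group with reads lay below the level of 3 reads per library, which a count of 0 still allows.

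**Figure D2:**
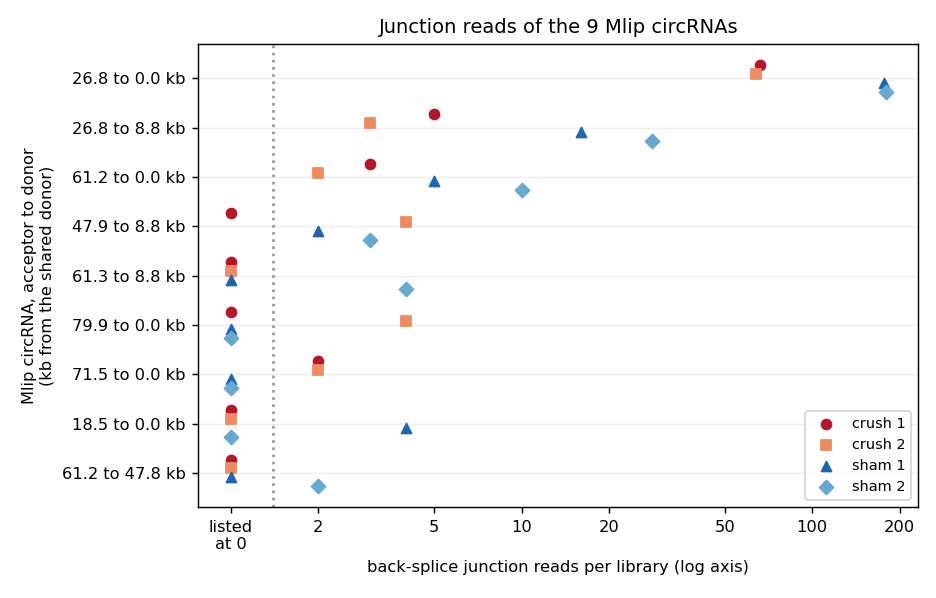
Junction reads (log axis, libraries listed at 0 drawn left of the dotted line) of the 9 Mlip circRNAs, named by the distance of acceptor and donor from the most used donor in kb. Symbols are the 4 libraries, crush 1 and 2 in red tones and sham 1 and 2 in blue tones. The top 3 circRNAs have both crush symbols left of both sham symbols, and below them no circRNA exceeds 4 reads.

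Summed over the 9 circRNAs, Mlip had 76 and 79 junction reads in crushed nerve against 204 and 226 in sham nerve. This was 5.51 and 4.72 SRPBM in crushed nerve against 14.9 and 17.8 in sham nerve, with means of 5.12 ± 0.56 SRPBM in crushed nerve and 16.3 ± 2.1 SRPBM in sham nerve (SD, n = 2 each). The replicates of a group differed by a log2 of 0.22 in crushed nerve and -0.26 in sham nerve, replicate 1 minus replicate 2. The host gene fit gave a log2 change of -1.26 ± 0.24 (SE, edgeR), and the median over all 434 host genes tested was 0.11.

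As a share of all junction reads in a library, Mlip took 0.921% (95% exact Clopper-Pearson interval 0.726% to 1.15%) and 0.875% (0.693% to 1.09%) in crushed nerve against 2.26% (1.97% to 2.59%) and 2.59% (2.27% to 2.95%) in sham nerve. These intervals cover counting error only, as reads without molecular identifiers are not independent molecules. Neither crush interval reached a sham interval, and since Mlip was chosen on this contrast, nothing is read from this. Among host genes by junction reads, the rank of Mlip was 3 and 4 for the crush replicates, against 4 and 2 for the sham replicates, so it stayed among the 4 hosts with the most reads in every library.

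**Figure D3:**
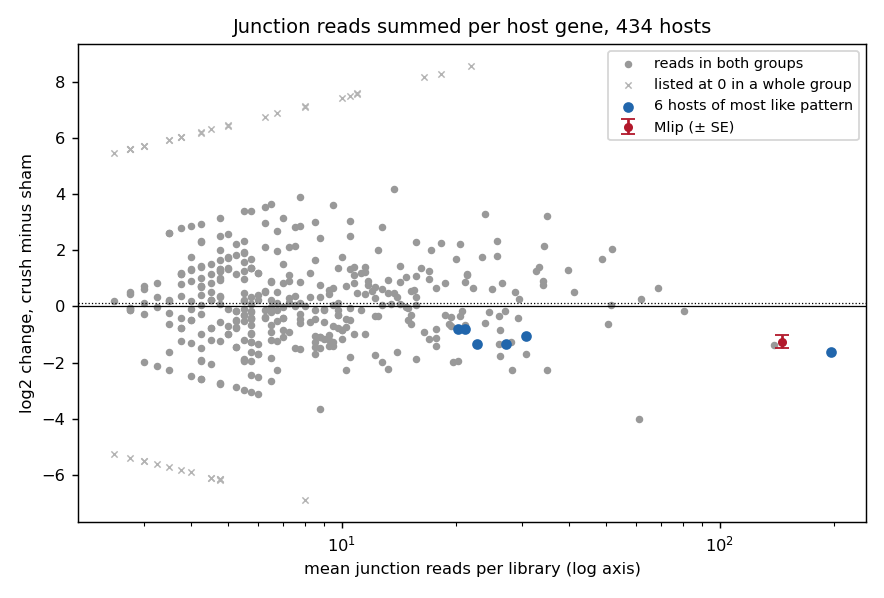
Log2 change (crush minus sham, edgeR) against the mean junction reads per library (log axis) for the 434 host genes tested. Mlip (red, with its SE) sits at -1.26 among the hosts with the most reads, blue points are the 6 hosts whose spread over the libraries is most like that of Mlip, crosses are hosts listed at 0 in a whole group, and the dotted line is the median of 0.11.

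A circRNA entered the test where at least 2 libraries had at least 5 reads, and 3 of the 9 members did. None of these 3 passed the circRNA test, in which 51 of 428 circRNAs (11.9%) were called at an adjusted p under 0.05 (edgeR quasi-likelihood test) and 19 (4.44%) were called lower in crushed nerve. All 3 had both crush libraries below both sham libraries as a share of junction reads, as did 137 of all 428 (32%). The summed Mlip reads did not pass the host gene test, in which 10 of 434 hosts (2.3%) were called and 2 (0.461%) were called lower in crushed nerve, though it did pass in 10 of 17 alternative settings. The 10 host calls themselves depended on the order of filtering and scaling, which was settled after the calls had been seen: of 3 other orders, 1 gave 14 calls and the others gave 0 in edgeR, with 107 and 108 hosts at an unadjusted p under 0.05. Both crush libraries lay below both sham libraries for Mlip and for 134 of the 434 hosts (30.9%). Since Mlip was chosen on this contrast, nothing is read from these counts.

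The share of Mlip reads taken by the leading circRNA differed little between the groups. The leading circRNA took 86.8% (95% exact interval 77.1% to 93.5%) and 81.0% (70.6% to 89.0%) of Mlip reads in crushed nerve, against 86.8% (81.3% to 91.1%) and 79.2% (73.3% to 84.3%) in sham nerve. The means were 83.9% ± 4.1 in crushed nerve and 83.0% ± 5.3 in sham nerve (SD, n = 2 each), so the groups differed by less than the replicates within them. The other 8 circRNAs had 10 and 15 reads in crushed nerve against 27 and 47 in sham nerve, or 0.811 ± 0.122 SRPBM against 2.83 ± 1.22 (SD, n = 2 each). Among these 8, the circRNA at 84443616 to 84461546 took 6.58% and 3.80% of Mlip reads in crushed nerve. In sham nerve it took 7.84% and 12.4%, so both crush shares lay below both sham shares, with exact intervals that overlapped. Without the leading circRNA, the fitted log2 change of the Mlip sum was -1.34 ± 0.52 (SE, edgeR).

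**Figure D4:**
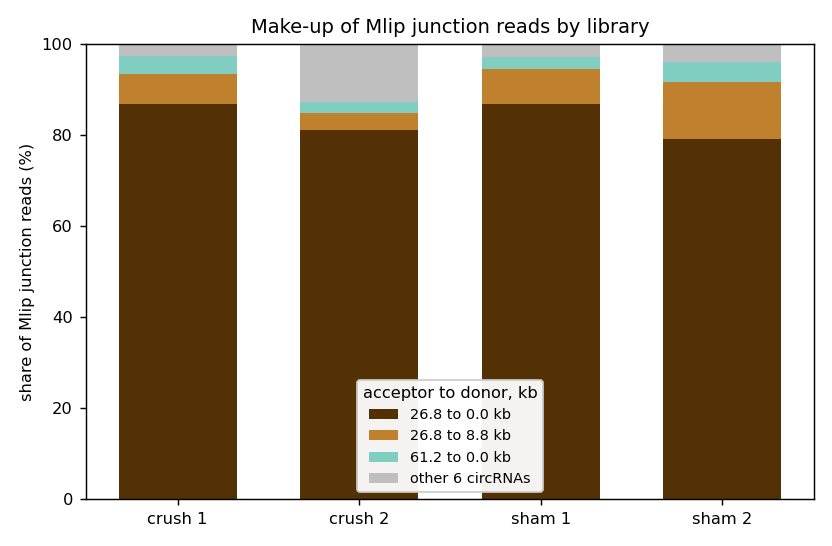
Stacked shares (%) of Mlip junction reads by circRNA in each library, with the 3 circRNAs reported in every library named by acceptor and donor distance in kb and the other 6 pooled. The darkest block, the leading circRNA, lies between 79.2% and 86.8% in all 4 libraries.

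Grouped by donor, the position at 84434784 gave 93.4% and 91.1% of Mlip reads in crushed nerve against 91.2% and 83.6% in sham nerve. The position at 84443616, which lies 8.83 kb upstream of it in the gene, gave 6.58% and 8.86% in crushed nerve against 8.82% and 15.5% in sham nerve. Sham replicate 2 stood apart from the other 3 libraries in both of these shares. Grouped by acceptor, the position at 84461546 gave 93.4% and 84.8% in crushed nerve against 94.6% and 91.6% in sham nerve, so a single acceptor was used in most Mlip reads of every library.

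Among reads that used the acceptor at 84461546, the share joined to the donor at 84443616 was 7.04% (95% exact interval 2.33% to 15.7%) and 4.48% (0.933% to 12.5%) in crushed nerve. In sham nerve it was 8.29% (4.81% to 13.1%) and 13.5% (9.18% to 19.0%). Both crush shares were below both sham shares. Crush replicate 1's interval held both sham shares, and crush replicate 2's interval held the share of sham replicate 1 but not that of sham replicate 2. Every crush interval overlapped every sham interval, so a difference in donor use was not resolved at this depth.

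Mlip was also set beside other hosts by how much a single circRNA dominated. Of the 134 host genes with at least 5 circRNAs, 25 had at least 100 junction reads in all. Their most abundant circRNA took between 19.8% and 94.2% of the reads of its host, with a median of 64.8%, and Mlip ranked 5 with 83.1%. The hosts above it were Arid1a, a chromatin remodelling subunit, with 94.2%, Spidr, a DNA repair gene, with 87.9%, Ralgapa1, a GTPase activator gene, with 84.8%, and Crebrf, a regulator of the CREB3 pathway, with 84.4%. These shares pool the 4 libraries, and some rest on few of them. All 207 reads of the leading Ralgapa1 circRNA, and 225 of the 244 reads of that host, came from sham replicate 1, so its place rests on 1 library. The leading Crebrf circRNA had 6 of 8 and 7 of 20 host reads in crushed nerve against 40 of 40 and 39 of 41 in sham nerve. The leading Mlip circRNA had 66 of 76 and 64 of 79 in crushed nerve against 177 of 204 and 179 of 226 in sham nerve. This ordering of single hosts has no test.

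Back-splices classed as intergenic also used Mlip acceptors. On the same strand, 3 such circRNAs ended at an acceptor of a Mlip circRNA, and no other circRNA overlapped the stretch from 84434784 to 84514711. The circRNAs at 84369504 to 84461546 and 84410405 to 84461546 shared the acceptor of the leading circRNA, with donors 65280 and 24379 bases downstream of the lowest Mlip donor. The first had 0 and 2 reads in crushed nerve against 0 and 4 in sham nerve, and the second had 2 and 5 reads in crushed nerve against 9 and 0 in sham nerve.

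The circRNA at 84432605 to 84482700 shared the acceptor at 84482700, with its donor 2179 bases downstream of the lowest Mlip donor, and had 2 reads in crush replicate 1 alone. The 3 together had 4 and 7 reads in crushed nerve against 9 and 4 in sham nerve, so their groups overlapped. The files do not assign them to Mlip and they are not counted among its 9. With them added, Mlip had 80 and 86 reads in crushed nerve against 213 and 230 in sham nerve, and the fitted log2 change was -1.19 ± 0.22 (SE, edgeR). In the whole set, 73 of 732 intergenic circRNAs (9.97%) shared an end with a circRNA that had a host on the same strand.

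The hosts of most like pattern were found from the share of a host's SRPBM total that each library held. For Mlip these shares were 12.9% and 11.0% for the crush replicates, against 34.7% and 41.5% for the sham replicates. Among 54 other hosts with a mean of at least 20 junction reads per library, Xpo7, a nuclear export receptor gene, was nearest, with absolute differences that summed to 8.48 percentage points over the 4 libraries. Its reads were 20 and 16 in crushed nerve against 44 and 43 in sham nerve. Pcca, a subunit of the mitochondrial propionyl-CoA carboxylase, followed with 9.43 points and had 13 and 10 reads in crushed nerve against 35 and 33 in sham nerve.

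Nfix came next at 11.7 points, with 67 and 106 reads in crushed nerve against 265 and 348 in sham nerve. Lrp6, a Wnt co-receptor gene, lay at 12.5 points with 12 and 15 reads in crushed nerve against 25 and 29 in sham nerve. Crebrf also lay at 12.5 points, and Uxs1, which makes UDP-xylose for proteoglycan chains, at 12.6 points. These 6 were lower in both crush libraries than in both sham libraries, which follows from their choice by likeness to Mlip. As a share of junction reads, so were 134 of the 434 hosts tested (30.9%). With 4 libraries the likeness is a description of where reads fell and of nothing else.

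Genes of the nuclear envelope, where the lamin partners of Mlip sit, gave few circRNA reads. Of 30 genes of the nuclear lamina and envelope, 10 were hosts, neither Lmna nor another lamin gene was among them, and the list had 18 and 16 junction reads in crushed nerve against 18 and 5 in sham nerve. A single member had enough reads to be tested, Nup153, a nuclear pore gene, with 2 and 8 reads in crushed nerve against 5 and 2 in sham nerve and a log2 change of 0.70 ± 1.03 (SE, edgeR) that did not pass. Syne2, a nuclear envelope spectrin repeat gene, had 0 and 0 reads in crushed nerve against 8 and 3 in sham nerve. Nup205 had 2 and 4 reads in crushed nerve and 0 and 0 in sham nerve.

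Marker lists of other cell types were summed beside Mlip. Of 42 striated muscle genes, 38 were not listed as hosts, among them Ttn, Ckm and Acta1, and the list summed to 0 and 0.120 SRPBM in crushed nerve against 0.364 and 1.02 in sham nerve. The fast myosin gene Myh1 had 0 and 0 reads in crushed nerve against 3 and 5 in sham nerve, Mybpc2, a fast myosin binding protein gene, had 0 and 0 against 2 and 6, and Neb, the nebulin gene, had 0 and 0 against 0 and 2. The fourth muscle host, the calcium release channel gene Ryr1, went the other way, with 0 and 2 reads in crushed nerve against 0 and 0 in sham nerve. An intergenic circRNA at chromosome 10, 53632921 to 53787097, that overlapped the circRNA of Myh1 had 0 and 0 reads in crushed nerve against 17 and 30 in sham nerve. Such overlaps were sought for the muscle list alone, and this search was not planned. No muscle gene had enough reads to be tested, Mlip itself is best known from muscle, and the part of muscle tissue in the Mlip result was not tested.

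For Schwann cell and myelin genes, 10 of 36 were hosts, and they summed to 1.38 and 1.08 SRPBM in crushed nerve against 2.11 and 4.17 in sham nerve. The tested members were Utrn, with 4 and 9 reads in crushed nerve against 11 and 16 in sham nerve, and Sbf2, with 6 and 4 against 14 and 11, and neither passed. Dst, the dystonin gene, had 2 and 3 reads in crushed nerve against 0 and 17 in sham nerve, and its 17 were part of the 53 list reads of sham replicate 2. The other hosts of the list had at most 5 reads in any library and differed in direction: of all 10, 4 were at 0 in both crush libraries and 2 were at 0 in both sham libraries. Junction reads show only circRNAs, so these lists are a narrow check of tissue make-up.

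Leukocyte genes had more junction reads in crushed nerve. Of 29 such genes 14 were hosts, and they summed to 6.74 and 5.98 SRPBM in crushed nerve against 0.219 and 0.393 in sham nerve. Of the 14, 12 were at 0 in both sham libraries and 1 was at 0 in both crush libraries. The list was chosen with earlier results of these data known, so nothing is read from its sum. All 7 members tested had a higher fitted value in crushed nerve, as did 232 of all 434 hosts tested. Each of the 7 reached 5 reads in the crush libraries alone. The filter of at least 5 reads in at least 2 libraries thus fixed their direction, and nothing is read from it. Csf3r, a neutrophil growth factor receptor gene, passed the host test, where 2.3% of hosts were called, and the other 6 did not. It had 28 and 16 reads in crushed nerve against 0 and 0 in sham nerve. It too entered the test through the crush libraries alone, so nothing is read from its call. Of 12 endothelial genes 4 were hosts, and the list summed to 0.580 and 0.478 SRPBM in crushed nerve against 0.510 and 0.865 in sham nerve. This sum joined opposite directions. Flt1 had 8 and 8 reads in crushed nerve against 4 and 4 in sham nerve and did not pass. The other 3 hosts were at 0 in both crush libraries and had at most 3 reads in a sham library. Pparg was the host among 10 adipocyte genes, with 2 reads in sham replicate 1. The total SRPBM of all circRNAs was 569 ± 41 in crushed nerve and 672 ± 21 in sham nerve (SD, n = 2 each), a difference of -15.3% beside -68.6% for Mlip. Cell numbers were not measured, and the part of a change in the cell mixture in the Mlip result was not tested.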

How the data were processed

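Each library's file, per the file headers, holds raw junction read counts per circRNA and an SRPBM signal, as deposited. Within a file the signal was the count times 1 constant. Per the submitters' processing notes, the build was Rnor_6.0 and the tools listed, with no role given, were edgeR, BWA and CASAVA 1.8. No source used here names the circRNA caller or the base convention of the coordinates. Per the labels' protocols, RNA was purified on RNeasy columns and made into paired-end libraries with a VAHTS total RNA kit. Mlip matched the RefSeq table of GRCr8 by symbol, and the table served for names only.

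Reads were summed over circRNAs with 1 host gene. The edgeR 4.0.16 quasi-likelihood test in R 4.3.3 was run on all circRNAs or hosts with at least 5 reads in at least 2 libraries, with library sizes recomputed after this filter and then TMM scaling, two-sided, with Benjamini-Hochberg adjustment. This order was chosen, to follow earlier processing of these data, after the calls of 4 orders had been seen. TMM removes any shift common to all circRNAs. The SE given with an edgeR log2 change was derived as the absolute log2 change divided by the square root of the quasi-likelihood F statistic. The test was also tried on simulated counts with known changes, and the outcome is not given here. Intervals are exact at 95%. The replicates of each group differed by more than sampling noise (chi-square per degree of freedom 2.81 after crush and 3.65 after sham), so none was merged. The labels do not say that replicates are separate animals, so spreads may be technical.

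The members and lists were chosen with earlier results of these data known. All Mlip circRNAs are named. Hosts of like pattern are the 6 nearest by the rule in the text, and of each list the 3 members with the most reads and any past the test are eligible for naming. Ryr1 and list members named as not listed were chosen after their values were seen. DESeq2 1.42.0, other scalings, orders of filtering and scaling, filters, left-out libraries and a replicate block were alternatives.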

Additional observations from a re-analysis of the deposited data

How the results depend on the processing

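All 56 recomputed values of the Mlip sum and of its 3 tested circRNAs gave lower values after crush. The log2 change of the sum was -1.67 with library totals from the SRPBM constants and as a ratio of mean SRPBM, -1.43 with total junction reads and no TMM, -1.44 with no filter and -1.44 with at least 2 reads in 2 libraries. It ran from -1.56 to -1.05 with 1 library left out and was -1.26 with a replicate block. The sum passed the host gene threshold in 10 of 17 alternatives and missed it in 7, among them those without crush replicate 1 and without crush replicate 2, and the leading circRNA passed in 5 of 15. Since Mlip was chosen on this contrast, nothing is read from the side of the threshold on which it fell. The order of filtering and TMM was settled after 4 orders had been run and their calls seen, and the one kept follows earlier processing of these data. TMM before the filter gave a log2 change of -1.44, 57 circRNA calls and 0 host calls (edgeR, 107 at an unadjusted p under 0.05). Library sizes kept through the filter gave -1.25, 51 and 14, with Mlip past the threshold. Library sizes of all junction reads gave -1.31, 51 and 0 (108). The median of all tested hosts was 0.11 with TMM, -0.06 with total junction reads and no TMM, and -0.30 with SRPBM totals and no TMM. Relative to this median the Mlip change was -1.38, -1.38 and -1.37. A change of scale moves all hosts by about the same amount, so these values had to lie close together and nothing is read from that. The leading circRNA's share of Mlip reads ran from 81.0% to 86.8% after crush and from 79.2% to 86.8% after sham with 1 library left out. It was 78.5% after crush with the 3 intergenic circRNAs added, an alternative chosen after seeing the data.

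The number of circRNAs past the threshold, 51, was 28 with DESeq2, 23 with at least 10 reads, 0 with at least 2 reads (edgeR, 434 at an unadjusted p under 0.05), 0 with a replicate block (53) and 6 to 76 with 1 library left out. For host genes, 10 became 32 with DESeq2, 39 with no filter, 44 with at least 10 reads, 0 with at least 2 reads (edgeR, 293 at an unadjusted p under 0.05), 24 with a replicate block and 0 (80) to 84 with 1 library left out, namely crush replicate 2 and sham replicate 2. Higher against lower calls split 31 to 28 for circRNAs and 8 to 6 for hosts with SRPBM totals, beside 32 to 19 and 8 to 2. Replicates share only a number across groups (r = -0.11 over 428 circRNAs). With crossed numbers 0 circRNAs (62 at an unadjusted p under 0.05) and 0 hosts (46) passed in edgeR. The cause of these shifts was not tested. At this depth the 6 Mlip circRNAs with at most 4 reads cannot be compared between groups.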
